A study of Mus musculus with 5 samples.

Results

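NKp46 (gene Ncr1) and CD16 (gene Fcgr3) are activating receptors of natural killer (NK) cells, and Fcer1g, Cd247, Tyrobp and Hcst encode the adaptor chains through which these and related receptors signal. All 6 genes were chosen by name and found by symbol in the deposited table, so they make up 6 of the 13004 genes listed. RNA had been sequenced from NK cells sorted by flow cytometry from mouse spleen as live cells lacking CD3 and carrying NK1.1 and DX5. The 5 libraries came from 8-week-old C57BL/6 mice and fall into groups of 2 and 3. The 2 MycKO libraries (replicates 5 and 6) carry the genotype Mycdelta/delta/Ncr1Cre, in which a Cre recombinase under Ncr1 control had removed loxP-flanked Myc alleles in cells that use Ncr1. The 3 control libraries (replicates 1, 2 and 3) carry Mycf/f, with the flanked alleles intact and no Cre named. Loss of Myc therefore cannot be told apart from presence of the Cre, which bears on Ncr1 above all, since the labels do not say whether the Cre sits in the Ncr1 locus or in a separate transgene. Nothing in the labels ties each library to its own mouse, and the p-values cover only the spread between the 5 samples, part of which may be technical.

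None of these receptors signals by itself. NKp46 and CD16 have short tails without a signalling motif and are held at the cell surface by adaptors with charged membrane segments. FcRγ (Fcer1g), CD3ζ (Cd247) and DAP12 (Tyrobp) carry immunoreceptor tyrosine-based activation motifs (ITAMs), which Src family kinases phosphorylate and on which the kinases SYK and ZAP-70 dock. DAP10 (Hcst) carries a different tyrosine motif that engages phosphatidylinositol 3-kinase and GRB2. In mouse NK cells NKp46 pairs with FcRγ and CD3ζ, CD16 with FcRγ, NKG2D with DAP10 and DAP12, and the activating Ly49 receptors and CD94-NKG2C with DAP12.

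The reads in listed genes came to 5451728 and 13337084 in MycKO 5 and 6, and to 15050801, 17610826 and 14290690 in controls 1, 2 and 3. Myc itself was at 12.5 and 8.70 RPKM in MycKO 5 and 6, against 12.98, 23.0 and 21.2 RPKM in controls 1, 2 and 3, with an adjusted p of 0.297 in limma, the test used throughout. RPKM is reads divided by transcript length and library size, so levels of different genes can be set side by side as far as the lengths used are right. The value for Myc covers the whole gene. The labels do not name the deleted part, so this level does not measure the deletion. All 13 NK cell markers looked up were found, led by the granzyme gene Gzma at 4699 and 5620 RPKM in MycKO 5 and 6 and 7251, 6894 and 6584 RPKM in controls 1, 2 and 3.

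Ncr1 was the only gene of the 6 with a large difference between the groups. It was at 633 and 744 RPKM in MycKO 5 and 6, against 1619, 931 and 1243 RPKM in controls 1, 2 and 3. Both MycKO libraries lay below every control, and control 2 lay nearest to them. The means were 688 ± 78.7 RPKM (SD, n = 2) in MycKO and 1264 ± 345 RPKM (SD, n = 3) in controls, a ratio of 0.544. On the log2(RPKM + 1) scale the change was -0.84 (SE 0.22, 95% interval -1.36 to -0.33), MycKO minus control, with an adjusted p of 0.143 in limma over all 11190 genes tested, so it did not pass the threshold of 0.05. Without control 2 it passed, at -1.05 with an adjusted p of 0.0265, when 217 of all genes passed, against 150 with all 5 libraries. With all 5 libraries the authors' deposited table gave -0.94 with an adjusted p of 0.000689. Without 1 of the other libraries the limma adjusted p was 0.260 to 0.582. Of the genes tested, 1.07% had a change as low as that of Ncr1 or lower. In rank among all listed genes, the level of Ncr1 was number 78 and 54 in MycKO 5 and 6, and number 13, 48 and 24 in controls 1, 2 and 3. Read numbers do not limit this value, as 5052 to 35665 reads lay behind it in each library.

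**Figure D1:**
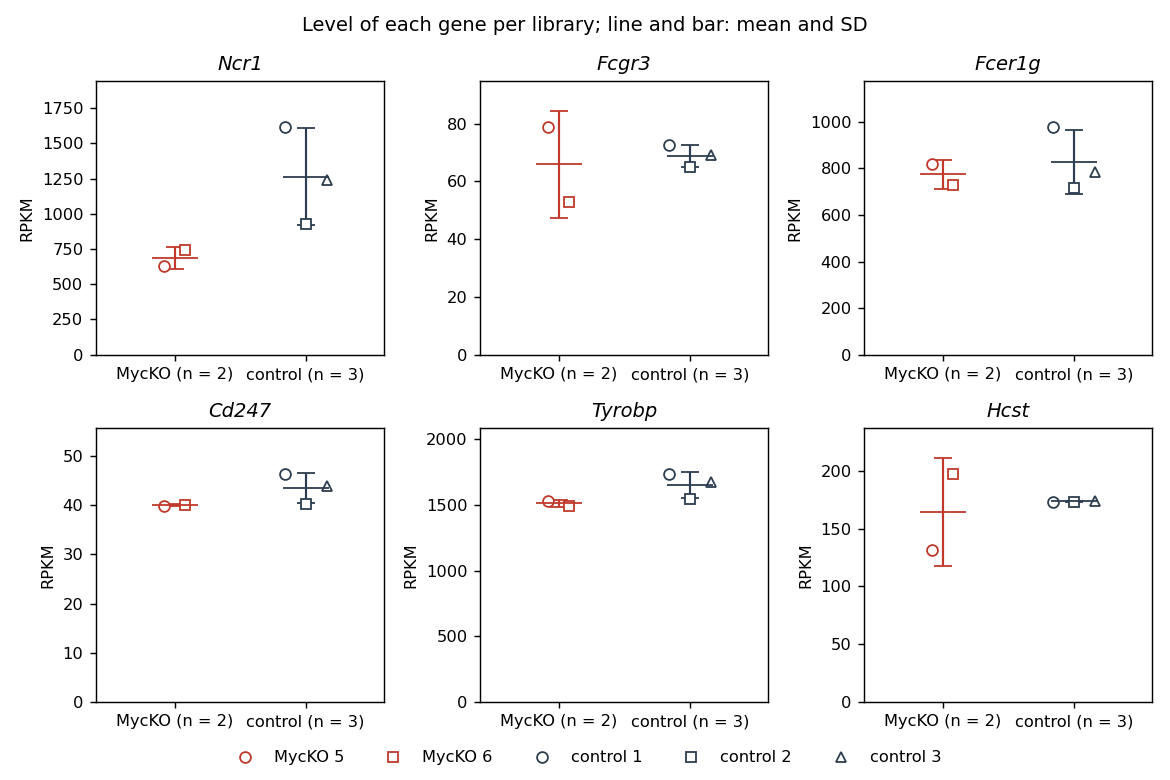
RPKM of the 6 genes in each library, with MycKO (red, n = 2) left of control (dark, n = 3) and each axis starting at 0; the horizontal line is the group mean and the bar its SD. For Ncr1 both MycKO libraries, at 633 and 744 RPKM, sit below the lowest control at 931 RPKM, while for Fcgr3, Fcer1g and Hcst the groups overlap.

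The start of Ncr1 is shown because this gene carries the main difference, with that of its adaptor gene Fcer1g for comparison. Both windows are from RefSeq (GRCm38.p6), run from 250 bases before to 50 after the start site and are written 5′ to 3′ on the strand of the gene. Capitals mark the letters TGTGGT on either strand, the core that RUNX transcription factors bind. The windows are chr7:4337465-4337764 (plus strand) for Ncr1 and chr1:171234300-171234599 (minus strand) for Fcer1g.
Ncr1: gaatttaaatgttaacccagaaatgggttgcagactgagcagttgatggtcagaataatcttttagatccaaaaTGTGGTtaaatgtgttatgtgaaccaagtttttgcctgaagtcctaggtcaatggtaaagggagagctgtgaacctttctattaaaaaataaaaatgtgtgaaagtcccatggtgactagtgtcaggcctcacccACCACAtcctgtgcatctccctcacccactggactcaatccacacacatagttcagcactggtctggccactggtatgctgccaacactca
Fcer1g: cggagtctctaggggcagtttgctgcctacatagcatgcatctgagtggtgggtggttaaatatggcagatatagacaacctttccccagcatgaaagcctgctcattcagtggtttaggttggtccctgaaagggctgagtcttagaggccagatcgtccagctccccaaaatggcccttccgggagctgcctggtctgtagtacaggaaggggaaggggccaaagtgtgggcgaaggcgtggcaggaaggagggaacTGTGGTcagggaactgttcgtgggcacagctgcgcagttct
The Ncr1 window shown holds TGTGGT at 2 places, 176 and 41 bases before its start site. Another RefSeq window of Ncr1 holds the same places, 185 and 50 bases before its own start site. The Fcer1g window holds TGTGGT at 1 place, just after the start site. Windows of Fcgr3, Cd247 and Hcst hold none, and 16.8% of all 32851 windows of this length hold at least 1. The E-box CACGTG, the sequence MYC binds with its partner MAX, was in none of the windows of these 5 genes, and 7.15% of all windows hold it. Such matches describe letters and not binding. Windows were matched for 5 of the 6 genes, all but Tyrobp.

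Fcgr3, the other receptor, was much lower in level than Ncr1 and did not differ detectably between the groups. It was at 79.0 and 52.8 RPKM in MycKO 5 and 6, against 72.5, 65.1 and 69.0 RPKM in controls 1, 2 and 3. The MycKO libraries lay on either side of all 3 controls. Their counting intervals (exact Poisson, 95%, counting error only), 72.7 to 85.6 and 49.5 to 56.2 RPKM, did not meet, so they differed by more than counting error. The change was -0.09 (SE 0.17, 95% interval -0.50 to 0.32, limma adjusted p = 0.915), and without MycKO 6 its sign turned, to 0.20. CD16 binds the constant part of IgG and lets NK cells kill antibody-coated targets.

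Fcgr3 has a close relative on the same chromosome, Fcgr2b, which encodes the inhibitory IgG receptor CD32b. In the GENCODE transcripts, 9.41% of the 51-base stretches of Fcgr3 also occur in Fcgr2b, where 51 bases is the read length given in the labels. No such stretch of Ncr1, Fcer1g, Tyrobp or Hcst occurs in another gene, and 2.88% of those of Cd247 do. The longest run identical in Fcgr3 and Fcgr2b has 129 bases, all coding, and is printed because reads wholly inside it cannot be assigned to either gene. It joins 2 exons in each gene. In Fcgr3 it falls within chr1:171054167-171057792 and in Fcgr2b within chr1:170966674-170968081, both on the minus strand (GRCm38, GENCODE vM21).
Shared run: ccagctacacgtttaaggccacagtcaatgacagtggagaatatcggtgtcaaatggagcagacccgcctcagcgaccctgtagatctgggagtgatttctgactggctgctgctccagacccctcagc
How the authors assigned such reads is not stated, so the split between these genes is uncertain.

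Fcer1g, the FcRγ chain, was among the most abundant transcripts in every library. It was at 818 and 731 RPKM in MycKO 5 and 6, against 979.7, 717 and 786 RPKM in controls 1, 2 and 3. The MycKO values lay within the range of the controls. The change was -0.09 (SE 0.15, 95% interval -0.44 to 0.27, limma adjusted p = 0.904), and without control 1 it was 0.04.

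Cd247, which encodes CD3ζ with its several ITAMs, had the lowest level of the 6 in RPKM. It was at 39.9 and 40.1 RPKM in MycKO 5 and 6, against 46.4, 40.3 and 44.0 RPKM in controls 1, 2 and 3. Both MycKO libraries lay below all controls, but by little, as MycKO 6 and control 2 differed by less than their counting intervals. The change was -0.12 (SE 0.12, 95% interval -0.41 to 0.17, limma adjusted p = 0.803).

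Tyrobp, which encodes DAP12, was the most abundant of the 6 in every library. It was at 1533 and 1493 RPKM in MycKO 5 and 6, against 1739, 1545 and 1672 RPKM in controls 1, 2 and 3. The groups did not overlap, with MycKO 5 and control 2 close together. The change was -0.13 (SE 0.11, 95% interval -0.39 to 0.14, limma adjusted p = 0.749).

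Hcst, which encodes DAP10, was nearly constant among controls and spread widely in MycKO. It was at 132 and 197.8 RPKM in MycKO 5 and 6, against 173.7, 173.4 and 174.6 RPKM in controls 1, 2 and 3. The counting intervals of the MycKO libraries, 117.8 to 147.2 and 186.7 to 209.5 RPKM, did not meet, and MycKO 5 had 318 reads in this gene, the fewest among the 6 genes in any library. The change was -0.11 (SE 0.17, 95% interval -0.49 to 0.28, limma adjusted p = 0.886). Its sign turned without MycKO 5, to 0.19, and in limma-voom, to 0.0047. Hcst and Tyrobp are neighbours on chromosome 7 (GRCm38). Tyrobp lies at 30413760 to 30417585 on the plus strand and Hcst at 30417712 to 30419854 on the minus strand, with 126 bases between their ends.

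As a set, 6 of 6 genes were lower in MycKO by limma, where 42.9% of all genes tested were. The groups did not overlap for 3 of 6, all lower in MycKO, against 10.4% of all genes that lay lower without overlap and 18.8% that lay higher. The 3 were Ncr1, Cd247 and Tyrobp. None of the 6 passed limma, against 1.34% of all genes. Before adjustment 1 had a p under 0.05, against 13.2% of all genes, and limma-voom called 0, against 2.07%. Only Ncr1 was called in the authors' deposited table, 1 of 6, against 3.4% of all listed genes in either direction and 0.5% as lower. The 6 were present at 39.9 RPKM or more in every library, so the filter on low values chose none of them. The median change of the 6 was -0.11, beside 0.05 over all genes tested. In bulk RNA, fewer cells of a type and less RNA per cell cannot be told apart.

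**Figure D2:**
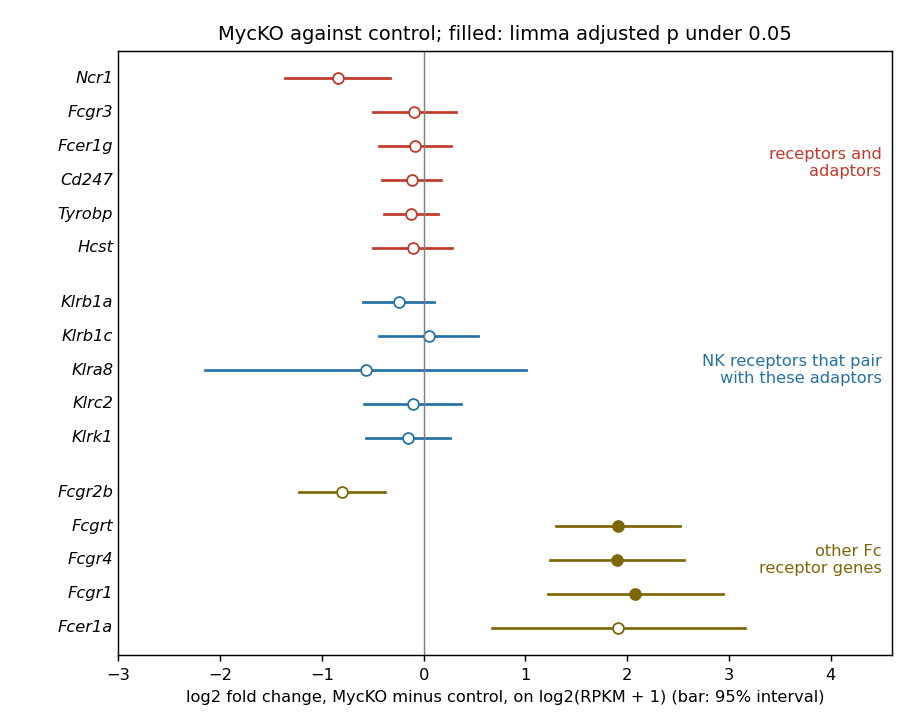
Change of each gene as MycKO minus control on the log2(RPKM + 1) scale, with its 95% interval from limma over 2 MycKO and 3 control libraries; filled points passed an adjusted p of 0.05. Ncr1 at -0.84 and Fcgr2b at -0.80 lie left of 0 with their whole intervals, the other 5 receptor and adaptor genes have intervals that include 0, and Fcgr1, Fcgr4 and Fcgrt at 1.90 to 2.08 are the genes that passed.

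The order of the levels in RPKM was the same in 4 of the 5 libraries, with Tyrobp first, then Ncr1, Fcer1g, Hcst, Fcgr3 and Cd247. In MycKO 5, Fcer1g stood above Ncr1, and in MycKO 6 Fcer1g at 731 RPKM and Ncr1 at 744 RPKM had overlapping counting intervals. In every control Ncr1 was the higher. The last place of Cd247 depends on the length behind its RPKM, which was 4975 bases, longer than any of its GENCODE transcripts (at most 2957 bases). Per length of each gene's longest transcript, chosen after seeing the data, Cd247 was at 67.1 and 67.6 in MycKO 5 and 6, against 78.2, 67.8 and 74.0 in controls 1, 2 and 3, on the RPKM scale. Fcgr3 was then at 79.4 and 53.0 in MycKO 5 and 6 and 72.8, 65.4 and 69.4 in controls 1, 2 and 3. On that scale Cd247 stood above Fcgr3 in all libraries but MycKO 5, so their order depends on the length used.

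Receptors were then set against the adaptors in 6 pairs. Of these, Fcgr3 with Cd247 is not a pairing named above for mouse CD16 and serves as a second scale for Fcgr3. The Ncr1 to Fcer1g ratio of RPKM was 0.774 and 1.02 in MycKO 5 and 6, against 1.65, 1.30 and 1.58 in controls 1, 2 and 3. Both MycKO ratios lay below all controls, and the difference was -0.76 on the log2 scale. An exact permutation test over the 10 ways of choosing 2 of 5 libraries (two-sided) gave p = 0.1, the smallest this design allows, and 0.6 adjusted over the 6 pairs compared. The Ncr1 to Cd247 ratio was 15.9 and 18.5 in MycKO 5 and 6, against 34.9, 23.1 and 28.3 in controls 1, 2 and 3, also without overlap. Its difference was -0.72 on the log2 scale (exact permutation p = 0.2, adjusted 0.6). Both ratios hold the same Ncr1 values, and Fcer1g and Cd247 changed by only -0.09 and -0.12. They are thus not independent of each other or of the Ncr1 difference above.

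For CD16 the ratios of the groups were interleaved. The Fcgr3 to Fcer1g ratio was 0.0966 and 0.0722 in MycKO 5 and 6, against 0.0740, 0.0908 and 0.0879 in controls 1, 2 and 3. Its difference was -0.01 on the log2 scale (exact permutation p = 1). The Fcgr3 to Cd247 ratio was 1.98 and 1.31 in MycKO 5 and 6, on either side of the 1.56, 1.62 and 1.57 of controls 1, 2 and 3 (difference 0.03, exact permutation p = 0.8). The size of each ratio to Cd247, that of Ncr1 included, depends on the length behind the RPKM of Cd247. The log2 difference between the groups does not.

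For DAP10 and DAP12 the receptor set beside them was NKG2D, encoded by Klrk1. The Klrk1 to Hcst ratio was 3.999 and 3.36 in MycKO 5 and 6, against 3.88, 3.11 and 4.47 in controls 1, 2 and 3. The Klrk1 to Tyrobp ratio was 0.344 and 0.445 in MycKO 5 and 6, against 0.388, 0.349 and 0.466 in controls 1, 2 and 3. The groups overlapped in both, with differences of -0.04 and -0.03 on the log2 scale (exact permutation p = 0.9 for each, adjusted 1). With 5 libraries these tests cannot show that the ratios are alike.

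**Figure D3:**
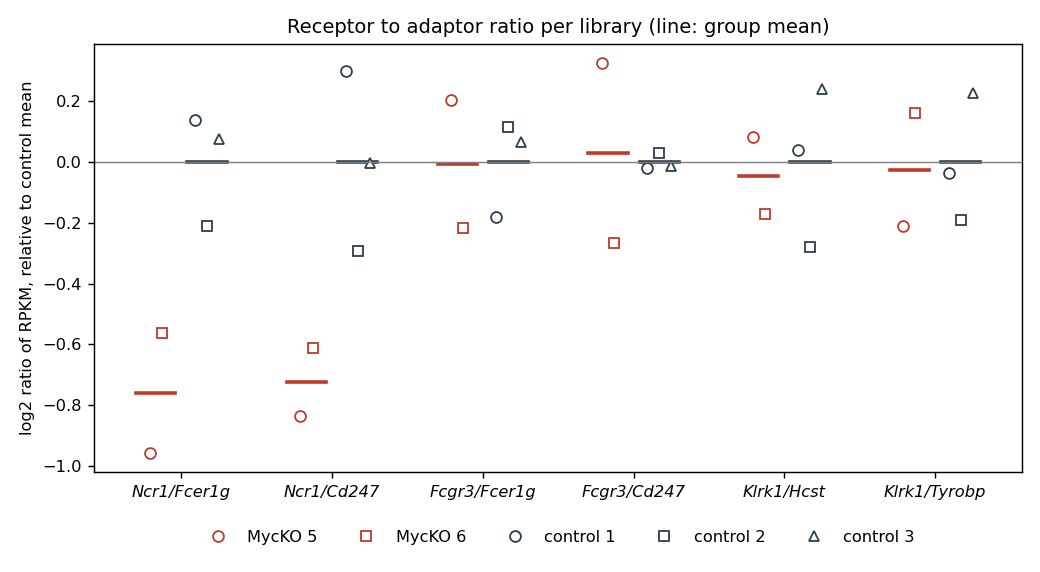
Log2 of the receptor to adaptor ratio of RPKM in each library, with the mean of the 3 controls set to 0; MycKO is left of control in each pair and the line is the group mean. Both Ncr1 ratios have MycKO means of -0.76 and -0.72 with no overlap, and the other 4 have means between -0.04 and 0.03 with overlap.

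The mean shares of the adaptor pool were close in the groups, while the Hcst share spread widely within MycKO. Tyrobp made up 60.8% and 60.6% of the summed RPKM of the 4 adaptor genes in MycKO 5 and 6, against 59.2%, 62.4% and 62.5% in controls 1, 2 and 3. Fcer1g followed with 32.4% and 29.7% in MycKO 5 and 6, against 33.3%, 29.0% and 29.3% in controls 1, 2 and 3. Hcst took 5.23% and 8.04% in MycKO 5 and 6, on either side of its 5.91%, 7.005% and 6.52% in controls 1, 2 and 3. Cd247 took 1.58% to 1.64% in every library, a share that depends on the length behind its RPKM. No share had an exact permutation p below 0.8, but with 5 libraries this test cannot show that the shares are alike. The summed level was 2492 ± 42.9 RPKM (SD, n = 2) in MycKO and 2697 ± 232 RPKM (SD, n = 3) in controls (exact permutation p = 0.3).

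Other NK receptors that use the same adaptors were looked up as a list. Of its 6 genes, 5 were measured, and none passed limma, 0 had a p under 0.05 before adjustment, and limma-voom and the authors' deposited table called 0 each. Over all genes these shares were 1.34%, 13.2%, 2.07% and 3.4%, so a count of 0 among 5 genes is near the background. NK1.1 itself, encoded by Klrb1c, pairs with FcRγ and was part of the sort gate. It was at 403 and 645 RPKM in MycKO 5 and 6, against 551, 421 and 514 RPKM in controls 1, 2 and 3. Its relative Klrb1a, the gene of NKR-P1A, was at 144 and 124 RPKM in MycKO 5 and 6, against 174, 132 and 173 RPKM in controls 1, 2 and 3, a change of -0.25 (limma adjusted p = 0.590). The NKG2C gene Klrc2 was at 86.9 and 124 RPKM in MycKO 5 and 6, against 121, 89.7 and 130 RPKM in controls 1, 2 and 3. The NKG2D gene Klrk1 was at 527 and 664 RPKM in MycKO 5 and 6, against 675, 539.6 and 779.7 RPKM in controls 1, 2 and 3, a change of -0.15 (95% interval -0.56 to 0.26). In all 4 of these genes the groups overlapped. The Ly49H gene Klra8 was at 4.02 RPKM or less in every library, and 32.4% of its 51-base stretches occur in other genes, so its level is uncertain, as are those of Klrb1a, Klrb1c and Klrc2 with 9.55%, 16.8% and 16%. The list's median change was -0.15, beside 0.05 over all genes.

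Among the other Fc receptor genes, Fcgr2b was at 25.4 and 27.5 RPKM in MycKO 5 and 6, against 57.5, 38.4 and 46.5 RPKM in controls 1, 2 and 3. The 2 groups did not overlap. The difference of Fcgr2b was -0.80 (SE 0.18), and its limma adjusted p of 0.0955 did not pass. It passed without control 2 (-0.94, adjusted p = 0.0408) and in the authors' deposited table (-0.90, adjusted p = 0.0104). The list of Fc receptor genes was chosen with earlier results of these data known, so the share over all genes is a scale and not a test. Of the 5 genes in this list, 3 rose by limma, where 1.24% of all genes did. They were Fcgr1, the high-affinity IgG receptor gene (2.08, adjusted p = 0.0484), Fcgr4, the gene of a myeloid IgG receptor (1.90, adjusted p = 0.0295), and Fcgrt, the gene of the neonatal Fc receptor (1.91, adjusted p = 0.0252). Fcgr4 was at 15.2 and 23.7 RPKM in MycKO 5 and 6, against 3.72, 5.68 and 3.86 RPKM in controls 1, 2 and 3. Leaving out control 1 or control 3 left 0 genes of this list past limma, when 39 and 35 of all genes passed. Leaving out control 2 left 4, when 217 of all genes passed, against 150 with all 5 libraries. Fcgr1 kept its call in 2 of the 12 alternatives, without control 2 and in the authors' deposited table, and its adjusted p was 0.0523 to 0.426 in the others. The IgE receptor gene Fcer1a was at 5.89 and 1.24 RPKM in MycKO 5 and 6, against 0, 0 and 0.136 RPKM in controls 1, 2 and 3, and did not pass (adjusted p = 0.166).

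Fcgr1 and Fcgr4 need Fcer1g to reach the surface. Macrophages, neutrophils and basophils are known to express Fcer1g and Tyrobp, and Fcgr3 is not confined to NK cells either. The levels of such cells' genes are therefore given beside those of the adaptors. Over all genes tested, 1.24% rose by limma and 13.2% had a limma p under 0.05 before adjustment. Limma-voom called 2.07% of them, and the authors' deposited table called 3.4% of all listed genes. Of all genes, 150 passed limma with all 5 libraries, and 39, 217 and 35 passed without controls 1, 2 and 3. The lists were chosen with earlier results of these data known, so these shares are a scale and not a test. Of 15 macrophage and monocyte markers, 10 rose by limma (5 to 9 with 1 control left out). The list's summed level was 1610 and 1479 RPKM in MycKO 5 and 6, against 299, 444 and 283 RPKM in controls 1, 2 and 3. The most abundant was the lysozyme gene Lyz2, at 734 and 210.5 RPKM in MycKO 5 and 6 and 102, 219.7 and 55.1 RPKM in controls 1, 2 and 3. Lyz2 was not among the 10, as its groups overlapped and it did not pass limma (adjusted p = 0.265). Of the 8 measured myeloid receptors that pair with FcRγ, 3 of 7 tested rose, and the list's summed level was 86.7 and 86.3 RPKM in MycKO 5 and 6, against 16.4, 16.7 and 20.8 RPKM in controls 1, 2 and 3. The third beside Fcgr1 and Fcgr4 was Clec4n, the gene of the fungal sensor Dectin-2 (2.37, adjusted p = 0.0159). Without control 1 none of the 7 passed, and without control 3 Clec4n alone did. Receptors that pair with DAP12 in myeloid cells summed to 43.3 and 57.3 RPKM in MycKO 5 and 6, against 8.70, 10.2 and 11.8 RPKM in controls 1, 2 and 3. None of the 6 tested passed limma, though 4 had a p under 0.05 before adjustment, and limma-voom called 0 while 1 was called in the authors' deposited table. Without control 1, and likewise without control 2, 1 of them passed limma.

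The counts of the next lists stand beside the same all-gene shares, 1.24% rising by limma and 13.2% with a limma p under 0.05 before adjustment. For limma-voom and the authors' deposited table the shares were 2.07% and 3.4%. Of all genes, 150 passed limma with all 5 libraries, and 39, 217 and 35 passed without controls 1, 2 and 3. Under median-of-ratios and upper-quartile scaling 127 and 133 passed, and with a pseudocount of 0.1 80 did. Without the filter 151 passed, and with a filter of 5 RPKM 119. Neutrophil markers summed to 590 and 241 RPKM in MycKO 5 and 6, against 62.7, 81.9 and 27.0 RPKM in controls 1, 2 and 3. S100a8 was the most abundant, and 2 of 7 tested rose. The count of neutrophil markers was 0 without control 1 or control 3, under median-of-ratios scaling, with a pseudocount of 0.1 and without the filter. It was 1 under upper-quartile scaling and with a filter of 5 RPKM, and 4 without control 2. Mpo, a defining gene of neutrophil precursors, was at 1.37 and 0.50 RPKM in MycKO 5 and 6 and listed at 0 in all controls. It lay too low to pass the filter and was not tested. Basophil and mast cell markers summed to 77.3 and 11.4 RPKM in MycKO 5 and 6, against 6.13, 6.15 and 5.6 RPKM in controls 1, 2 and 3, and the basophil protease gene Mcpt8 was listed at 0 in every control. None of the 6 tested passed limma, 2 had a p under 0.05 before adjustment, and limma-voom called 0, while 1 was called in the authors' deposited table. Of the MycKO libraries, MycKO 5 was the higher in both lists. It was also the higher for Fcgr3, Fcer1g and Tyrobp, and the lower for Ncr1, Cd247 and Hcst. A link between these lists and the genes was not tested. T cell markers, which bear on Cd247 because T cells also use CD3ζ, summed to 148 and 207 RPKM in MycKO 5 and 6, against 51.0, 62.6 and 40.3 RPKM in controls 1, 2 and 3, and 3 of 9 tested rose. That count was 1 without control 1 or control 3, with a pseudocount of 0.1 and without the filter, and 5 in the authors' deposited table. Of the 5 CD3 and B cell receptor chains with ITAMs and the mast cell chain gene Ms4a2, 2 of 6 rose, Cd3e (2.83, adjusted p = 0.0357) and Cd3g (2.53, adjusted p = 0.00776). Cd3e lost its call without MycKO 6, control 1 or control 3, with a pseudocount of 0.1 and without the filter on low values (adjusted p = 0.0516 to 0.173). Cd3g kept it in all 12 alternatives. B cell markers, led by Cd79b, summed to 118 and 101 RPKM in MycKO 5 and 6, against 65.0, 48.7 and 71.2 RPKM in controls 1, 2 and 3. None of the 9 passed limma, 3 had a p under 0.05 before adjustment, and limma-voom and the authors' deposited table called 0. B cells and macrophages also express Fcgr2b, which was lower in MycKO. The part of these cells in its level was not tested, and its split of reads with Fcgr3 is uncertain. Red cell and platelet markers, led by Car1, summed to 220.0 and 102 RPKM in MycKO 5 and 6, against 7.38, 10.7 and 6.07 RPKM in controls 1, 2 and 3. Of these markers 3 of 8 rose (2 without control 1 or control 3, and 1 in limma-voom). The part of these cells in the levels of the 6 genes was not tested.

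**Figure D4:**
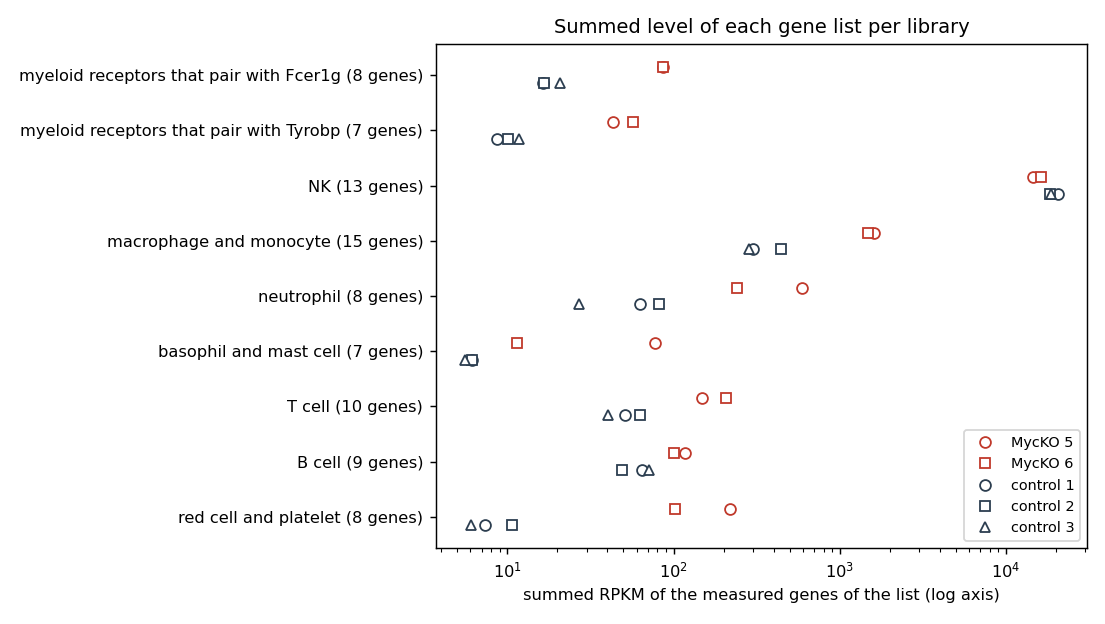
Summed RPKM of the measured genes of each list on a log axis, with MycKO (red) above control (dark) in each row. Both MycKO libraries lie above all controls for the lists of other cells, such as 1610 and 1479 against 283 to 444 RPKM for macrophages and monocytes, and below them for the NK markers.

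The 13 NK markers summed to 14469 and 16214 RPKM in MycKO 5 and 6, against 20479, 18300 and 18612 RPKM in controls 1, 2 and 3. Of these, 9 were lower in MycKO, where 42.9% of all genes tested were. None passed limma, 6 had a p under 0.05 before adjustment, and 4 were called as lower by limma-voom and 4 in the authors' deposited table. Over all genes 1.34% passed limma and 13.2% had such a p, and 0.241% and 0.5% were called as lower by limma-voom and in the authors' deposited table. Without control 2, 1 marker passed limma, when 217 of all genes passed, against 150 with all 5 libraries. Their changes ran from -0.54 for Tbx21, the gene of T-bet, to 0.27 for the granzyme gene Gzmb, with a median of -0.27. The -0.84 of Ncr1 lay below all of them, and those of the other 5 genes, -0.13 to -0.09, lay inside that range. No test compared Ncr1 with these markers.

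Downstream of the adaptors, 26 genes of ITAM signalling were all tested. Of these, 1 rose by limma and none fell, against 1.24% and 0.0983% of all genes. Before adjustment 5 had a limma p under 0.05, against 13.2% of all genes. Limma-voom called 1, against 2.07%, and 4 were called in the authors' deposited table, against 3.4% of all listed genes. The median change was -0.0043, with 13 genes higher and 13 lower. The gene that rose was Lyn, a Src family kinase prominent in B and myeloid cells, at 73.9 and 72.6 RPKM in MycKO 5 and 6, against 48.6, 42.1 and 40.4 RPKM in controls 1, 2 and 3 (0.74, adjusted p = 0.0431). It lost the call without each of the 5 libraries (adjusted p = 0.0607 to 0.287), under both other scalings and with a pseudocount of 0.1, and MycKO 5 and 6 were also the libraries high in macrophage and B cell markers, whose part was not tested. Next by p came Zap70, the gene of the kinase that docks on ITAMs, at 48.1 and 43.8 RPKM in MycKO 5 and 6, against 61.5, 70.4 and 60.3 RPKM in controls 1, 2 and 3. Its change of -0.47 did not pass limma (adjusted p = 0.151), and the authors' deposited table gave -0.54 with an adjusted p of 0.0280. Plcg1 (1.42), Malt1 (-0.49) and the SLP-76 gene Lcp2 (0.38) followed, with limma adjusted p-values of 0.168 to 0.187. Syk, the other kinase that docks on ITAMs, was at 76.9 and 80.2 RPKM in MycKO 5 and 6 and 81.4, 84.5 and 74.4 RPKM in controls 1, 2 and 3.

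To see which genes share the pattern of each of the 6, the log2(RPKM + 1) values were centred per gene, and genes were ranked by the root mean square distance over the 5 libraries. The search covered 7029 genes with a mean of at least 3 on that scale, leaving out predicted genes, pseudogenes and antigen receptor segments. For Ncr1 the nearest was Fcgr2b, at a distance of 0.0854, where the values of Ncr1 itself spread by 0.490 around their mean. Adprm (0.149) and Dhrs3 (0.158) followed, and neither passed limma (adjusted p = 0.159 and 0.190). For Cd247 the nearest gene was Tyrobp, and for Tyrobp it was Cd247, at 0.0185, beside spreads of 0.0865 and 0.0833. Qk and Med20 followed for Cd247, and Rps16 was also among the 3 nearest to Tyrobp. The nearest to Fcer1g were Ccdc71l (0.0179), Zfp644 and Gorasp2, those to Fcgr3 were Dpm2 (0.0428), Atmin and Zbed4, and those to Hcst were Arl10 (0.0355), Cep120 and Cog1. Among the 6, the distance from Ncr1 to the others was 0.409 to 0.493, and from Fcer1g to Cd247 and Tyrobp 0.106 and 0.108. A small distance for a gene that varies little says little.

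**Figure D5:**
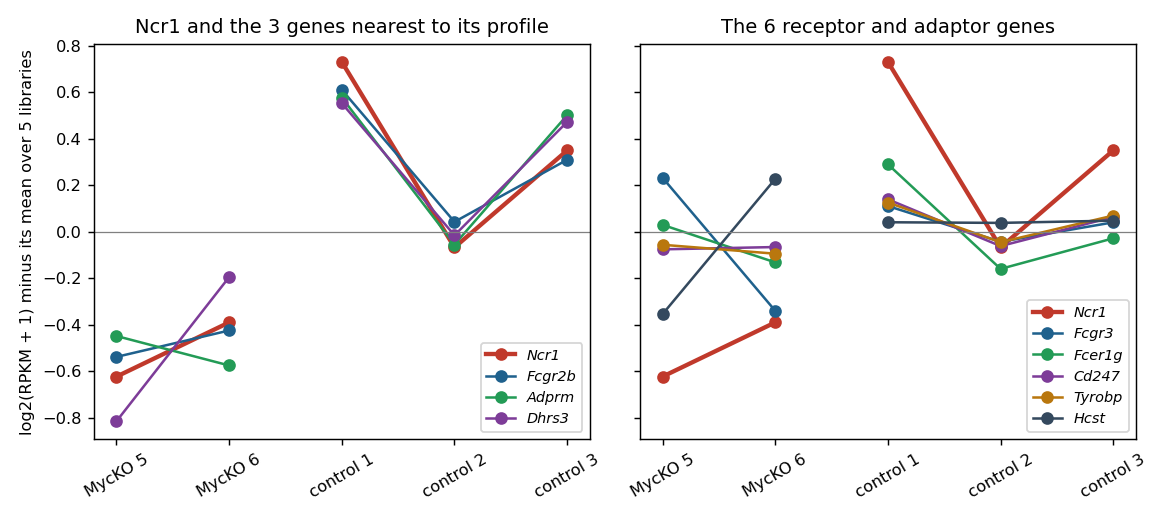
Log2(RPKM + 1) of each gene in each library minus its mean over the 5 libraries, for Ncr1 with its 3 nearest genes (left) and for the 6 receptor and adaptor genes (right); lines join libraries of the same group only to guide the eye. Ncr1 and Fcgr2b lie within a root mean square distance of 0.0854, and among the 6 genes Ncr1 varies most, with a spread of 0.490.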

How the data were processed

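RNA of 2 MycKO and 3 control libraries had been made into directional libraries and sequenced as single reads of 51 bases, per the labels' protocols. TopHat and edgeR are named without a role, with build mm10, per the submitters' processing notes. Their versions, the annotation, the counting and the use of strand are not stated there or in the table. The deposited table gives an RPKM value per gene and library, per the file headers and the values. It also holds the authors' mean normalized signal per group, their ratio and log2 ratio of MycKO over control, and their p-values and adjusted p-values. The program behind those p-values is not named there.

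RPKM was analysed as log2(RPKM + 1), which understates changes of low genes. Genes reaching 1 RPKM in 2 or more libraries (11190) were tested with limma 3.58.1 (R 4.3.3, variance trend, two-sided, 3 residual and 4.41 prior degrees of freedom), with Benjamini-Hochberg adjustment over all of them and a threshold of 0.05. RPKM values and group means together gave the reads and lengths behind each value. In every library, 100% of values came out whole within 0.001 of a read. These served for counting intervals, which cover counting error only, and for limma-voom. Alternatives were no filter, a filter of 5 RPKM, a pseudocount of 0.1, scaling by upper quartiles or by medians of ratios, limma-voom, the authors' deposited test and leaving out each library. With 1 library left in a group, that library is taken to vary like the others. For the lists other than partner receptors and ITAM signalling, these alternatives were added after seeing the data. The fit was tested on simulated data.

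The 6 genes and all gene lists were chosen with earlier results of these data known. Named are the 6 genes, the listed partner and Fc receptors, the 5 signalling genes with the smallest p, the most abundant gene of each marker list and the 3 nearest genes in pattern, of which 1 is not reported here. Others (Tbx21, Gzmb, Syk, Mpo, Clec4n, Cd3e, Cd3g, Ms4a2) were chosen after their values were seen. Gene positions are from GENCODE vM21, and figures were drawn with matplotlib 3.10.9.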

Additional observations from a re-analysis of the deposited data

How the results depend on the processing

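The number of genes that passed limma was 150 and moved to 80 with a pseudocount of 0.1, 232 in limma-voom and 442 in the authors' deposited table (of all 13004 listed genes, against 11190 tested here), and to between 34 and 217 when 1 library was left out. The 1 ITAM signalling gene that passed became 0 with a pseudocount of 0.1, under scaling by upper quartiles or by medians of ratios, and without each library, and 4 in the authors' table. Ncr1 kept its direction in all 12 alternatives, at -1.05 to -0.65 with 1 library left out, and passed only without control 2 and in the authors' deposited table (-0.94). With 1 library left out, Fcgr3 ran from -0.38 to 0.20, Fcer1g from -0.18 to 0.043 and Hcst from -0.40 to 0.19, and Hcst turned to 0.0047 in limma-voom. Cd247 and Tyrobp kept their direction. Klrb1c ran from -0.29 to 0.39 and was -0.0033 under median-of-ratios scaling, Klrc2 from -0.36 to 0.15 and Klrk1 from -0.32 to 0.016, and Klra8 turned to 0.82 in limma-voom. The log2 ratio differences ran from -0.22 to 0.20 for Fcgr3 to Fcer1g, -0.27 to 0.32 for Fcgr3 to Cd247, -0.18 to 0.081 for Klrk1 to Hcst and -0.21 to 0.16 for Klrk1 to Tyrobp, while those of Ncr1 stayed below 0, at -0.96 to -0.56 and -0.87 to -0.58. The difference in the Hcst share of the adaptor sum ran from -1.25 to 1.56 percentage points. The cause of these shifts was not tested. No paired analysis was possible because the groups share no replicate number. MycKO 5 had the fewest reads, which widens the counting intervals of Hcst and Fcgr3 most.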
